A study of Mus musculus with 6 samples.

Results

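Aplnr encodes the receptor for the peptide apelin and is known in mouse lung from the general capillary endothelium. It is described here with 9 other genes known from endothelial cells, namely Pecam1, Cdh5, Kdr, Tek, Car4, Ednrb, Plvap, Gpihbp1 and Vwf. These 10 genes, of 18193 measured, were taken with all probe sets whose single gene symbol in the platform annotation was one of their names, which gave 15 of 34945 probe sets. The genes were chosen by their place in endothelial biology and with their signals on these arrays, and above all the lower signal of Aplnr in the mutant-labelled arrays, in view, so their differences between the genotypes are given as a description and without a test. Of the 10 genes, 8 had signals that overlapped between the genotypes, while Aplnr was lower and Ednrb higher on every mutant-labelled array. Over all genes, 20.5% had genotypes that did not overlap, and since the contrast was in view nothing is read from the count of 2.

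The arrays compared lung cells of mice labelled Bmi1 mutant, with the genotype given as null, with lung cells of Bmi1 wild-type mice, 3 arrays per genotype. All mice were females of 4 months on a mixed Bl6 and 129 background. From digested lungs, living cells that stained for neither CD31 nor CD45 were collected by flow cytometry without culture, a gate meant to leave out endothelial and blood cells, and their amplified RNA was hybridized to Affymetrix Mouse Genome 430 2.0 arrays. Whether each array stands for 1 mouse or a pool is not stated in the labels, and which part of Bmi1 is missing is not given in the sources used here.

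The endothelium lines blood vessels, and its cells are joined by adhesion proteins and kept alive by vascular endothelial growth factor and angiopoietin signals. In the mouse alveolus it is known to form capillaries of general cells, which carry Aplnr, Gpihbp1 and Plvap, and of aerocytes, which carry Car4, Ednrb and the ligand gene Apln. Pecam1 encodes CD31, the protein on which the sort was based. The RNA of sorted cells does not measure the protein on their surface, and in such bulk samples fewer cells of a type cannot be told apart from less RNA per cell.

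The targeted gene did not set the genotypes apart in the direction of its labels. The brighter Bmi1 probe set read 1276, 1498 and 1565 in the mutant-labelled arrays, against 996, 980 and 1164 in the wild-type arrays. It was thus higher on every mutant-labelled array, and the gene had an adjusted p of 0.282 in limma. The dimmer probe set read 637, 535 and 824 in the mutant-labelled arrays, against 545, 535 and 684 in the wild-type arrays, with overlap. A probe outside the missing part checks nothing, so every direction given here rests on the labels. The median signal per array lay between 97.4 and 114. The ratio of 3' to 5' Gapdh control signals was 5.24 to 5.94 in mutant-labelled and 4.85 to 5.88 in wild-type arrays. That of the beta-actin control signals was 0.949 to 0.980 in mutant-labelled and 0.966 to 1.002 in wild-type arrays. Markers of blood cells were bright although the sort was against CD45: all 10 leukocyte genes examined lay above the array's median on all 6 arrays, with summed signals of 57036 to 71351 in mutant-labelled and 61377 to 80070 in wild-type arrays. Ptprc, which encodes CD45, averaged 5767 ± 852 in mutant-labelled and 7716 ± 966 in wild-type arrays (SD, n = 3 each).

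RNA of endothelial genes was present in the sorted cells of both genotypes. Of the 15 probe sets, 14 lay above the median probe set on all 6 arrays, and the exception was an Ednrb probe set on wild-type replicate 3. Setting aside Aplnr and Ednrb, the probe sets that stand for the other 8 genes lay between the 79.1 and the 99.3 percentile of their array, with a lowest signal of 676. Pecam1 itself lay between the 91.0 and the 94.7 percentile. Genes of the Y chromosome, which female cells lack, gave a measure of empty signal: the summed signal of Uty, Eif2s3y and Kdm5d was 8.7 to 43.1 in mutant-labelled and 16.4 to 37.9 in wild-type arrays. No array of unsorted cells was analysed here, so how far the sort lowered endothelial RNA was not measured. Probe sets differ in how strongly they bind, so signals are compared between arrays and not between genes.

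**Figure D1:**
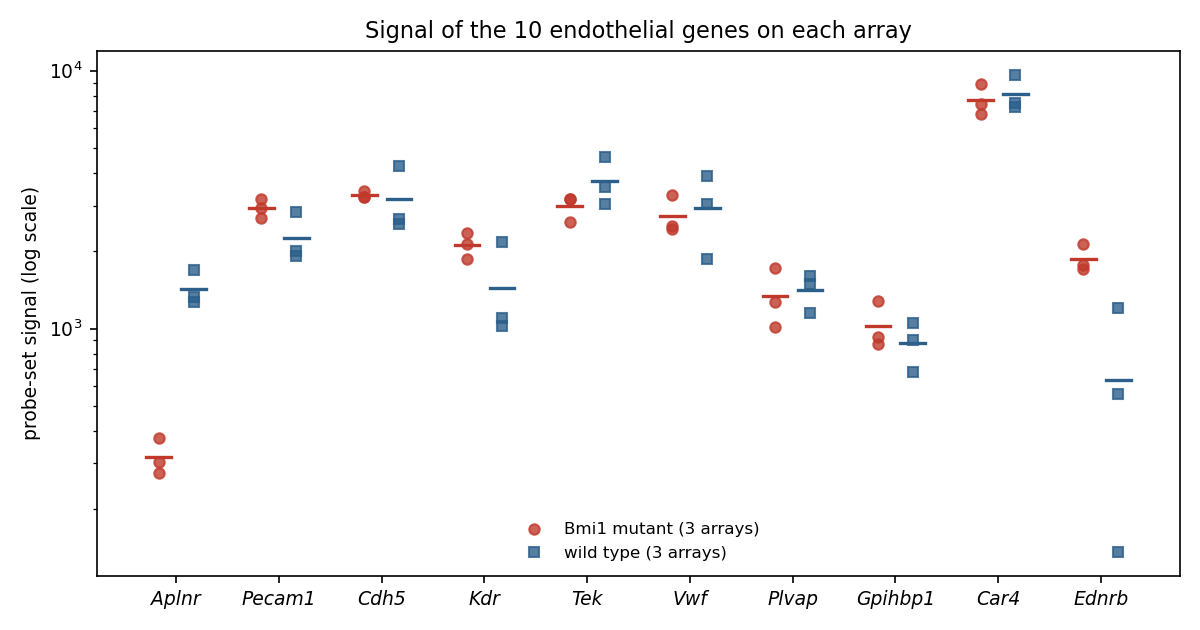
Signal of each of the 10 genes (y axis, log scale) on the 3 mutant-labelled arrays (red circles, left) and the 3 wild-type arrays (blue squares, right), with bars at the means and the brightest probe set standing for each gene. Aplnr lies between 275 and 375 in the mutant-labelled arrays and between 1270 and 1686 in wild type, and for the genes other than Aplnr and Ednrb the symbols of the genotypes overlap.

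Aplnr had the lowest difference of the 10 genes. Its brighter probe set read 275, 304 and 375 in the mutant-labelled arrays, against 1686, 1322 and 1270 in the wild-type arrays. The highest mutant-labelled array thus lay below the lowest wild-type array. The means were 318 ± 51.5 in mutant-labelled and 1426 ± 227 in wild-type arrays (SD, n = 3 each), so that the wild-type mean was 4.49 times the mutant-labelled one. On the scale of log2(signal + 16), used for every difference here, this was a difference, mutant minus wild type, of -2.11 ± 0.20 (limma's moderated SE).

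The second Aplnr probe set gave the same direction with a smaller difference. It read 305, 205 and 230 in the mutant-labelled arrays, against 567, 691 and 751 in the wild-type arrays, a log2 difference of -1.39 ± 0.21 (SE). Here too the genotypes did not overlap. The mean of both probe sets differed by -1.75. Over all genes, 48 of 18193, or 0.264%, had a log2 difference as low as that of Aplnr or lower. Aplnr was chosen with its lower signal in view, so this share is no test.

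Among the 10 genes, 1, Aplnr, passed an adjusted p under 0.05 in limma across all genes, where the background over all genes was 0.511% lower and 0.412% higher, or 0.923% in all. Since that contrast was in view when the genes were proposed, nothing is read from this count. The call was lost without wild-type replicate 2, wild-type replicate 3 or mutant-labelled replicate 1, when 2, 8 and 23 of all genes remained called, although the difference of Aplnr was then -2.16, -2.19 and -2.02. It was also lost with a replicate block, where the difference was -2.11, and with each marker list used as a covariate, where the difference was -2.19 (endothelial), -2.24 (leukocyte), -2.38 (fibroblast) and -2.49 (pericyte and smooth muscle, chosen after seeing the data).

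For the apelin pathway, 5 genes other than Aplnr were measured. Apln, which encodes apelin, read 162, 150 and 314 in the mutant-labelled arrays, against 232, 99.5 and 77.6 in the wild-type arrays. The groups overlapped, and the log2 difference was 0.62 ± 0.43 (SE, adjusted p = 0.574). Apela, the gene of the second known ligand, was near the empty signal in both, at 7.42 ± 7.94 in mutant-labelled and 13.1 ± 9.84 in wild-type arrays (SD, n = 3 each). Arrb1 and Arrb2, whose arrestin products bind activated receptors of this class, differed by 0.15 (adjusted p = 0.738) and -0.34 (adjusted p = 0.614). Of these 5 genes, 0 passed the test and 0 had an unadjusted p under 0.05. The shares over all genes were 0.923% and 14.5%, so with 5 genes nothing is read from the 0. The median of the 5 was 0.01, beside 0.01 over all genes.

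The adhesion genes of endothelial junctions did not follow Aplnr. Pecam1 read 3185, 2691 and 2940 in the mutant-labelled arrays, against 2829, 1907 and 2006 in the wild-type arrays. Wild-type replicate 1 lay within the mutant-labelled range, and the log2 difference was 0.40 ± 0.20 (SE). Cdh5, which encodes the cadherin of endothelial junctions, read 3245, 3408 and 3238 in the mutant-labelled arrays, against 4281, 2555 and 2671 in the wild-type arrays. The mutant-labelled values lay inside the wild-type range, with a log2 difference of 0.10 ± 0.23 for this probe set and -0.15 ± 0.25 for the dimmer one (SE).

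The receptors of growth signals, Kdr and Tek, differed in sign and overlapped between the genotypes. Kdr, the main signalling receptor for vascular endothelial growth factor, read 1865, 2127 and 2350 in the mutant-labelled arrays, against 2173, 1025 and 1095 in the wild-type arrays. Wild-type replicate 1 again lay with the mutant-labelled arrays, and the log2 difference was 0.64 ± 0.31 (SE). Tek, the receptor of the angiopoietins, read 3191, 2580 and 3173 in the mutant-labelled arrays, against 4625, 3030 and 3546 in the wild-type arrays. Its log2 difference of -0.31 ± 0.21 (SE) was the lowest of the 9 genes other than Aplnr.

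The ligands of these receptors and the other members of their families, 15 measured genes, had 0 called and 2 with an unadjusted p under 0.05. The shares over all genes were 0.923% and 14.5%. The median difference of the 15 genes was 0.22. The angiopoietin-like gene Angptl1 was dim, at 17.7 ± 16.6 in mutant-labelled and 107 ± 55.5 in wild-type arrays (SD, n = 3 each), and differed by -1.89 (adjusted p = 0.115). Angpt2, a ligand of the Tek receptor, differed by 0.58 (adjusted p = 0.333) and Nrp2, a co-receptor, by 0.58 (adjusted p = 0.392).

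Vwf and Plvap, genes of secreted and vesicle proteins of endothelium, lay close to 0. Vwf encodes von Willebrand factor, which captures platelets, and read 3284, 2434 and 2499 in the mutant-labelled arrays, against 3906, 1854 and 3033 in the wild-type arrays. Plvap, the gene of the diaphragm protein of fenestrae and caveolae, read 1724, 1271 and 1014 in the mutant-labelled arrays, against 1489, 1147 and 1593 in the wild-type arrays. The genotypes overlapped in both, and the log2 differences were -0.05 ± 0.30 for Vwf, which turned to 0.05 with median centring of each array, and -0.10 ± 0.25 for Plvap (SE).

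Gpihbp1, which carries lipoprotein lipase to the capillary lumen, read 1277, 868 and 928 in the mutant-labelled arrays, against 1054, 676 and 903 in the wild-type arrays. The groups overlapped, with a log2 difference of 0.22 ± 0.24 (SE). Gpihbp1 and Plvap are known, like Aplnr, from general capillary cells. The gene of the lipase, Lpl, averaged 7359 ± 572 in mutant-labelled and 8002 ± 494 in wild-type arrays (SD, n = 3 each, log2 difference -0.12, adjusted p = 0.788). Of 8 measured genes of its pathway, 0 were called and 0 had an unadjusted p under 0.05. The shares over all genes were 0.923% and 14.5%, so with 8 genes nothing is read from the 0.

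Car4 and Ednrb are known from aerocytes, and their differences were unlike each other. Car4, a membrane-bound carbonic anhydrase, read 6808, 7461 and 8914 in the mutant-labelled arrays, against 9660, 7234 and 7468 in the wild-type arrays. The groups overlapped, and the log2 difference was -0.07 ± 0.19 (SE), which turned to 0.03 with median centring. The dimmer probe set of Car4 differed by -0.13 ± 0.28 (SE) and overlapped as well.

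Ednrb, which encodes the type B endothelin receptor, had the highest difference of the 10 genes and the widest log2 spread among wild-type arrays. Its brightest probe set read 2130, 1699 and 1763 in the mutant-labelled arrays, against 1204, 557 and 136 in the wild-type arrays. Every mutant-labelled array lay above every wild-type array. On the log2 scale the wild-type arrays differed among themselves more than the genotypes did on average. The means were 1864 ± 232 in mutant-labelled and 632 ± 538 in wild-type arrays (SD, n = 3 each), which gave 1.98 ± 0.69 (SE) on the log2 scale. The other 2 probe sets gave 2.07 ± 0.58 and 1.61 ± 0.33 (SE), also without overlap. Without wild-type replicate 3, which had the lowest value, the difference was 1.16, so that this array moved it by over 1.5 times.

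**Figure D2:**
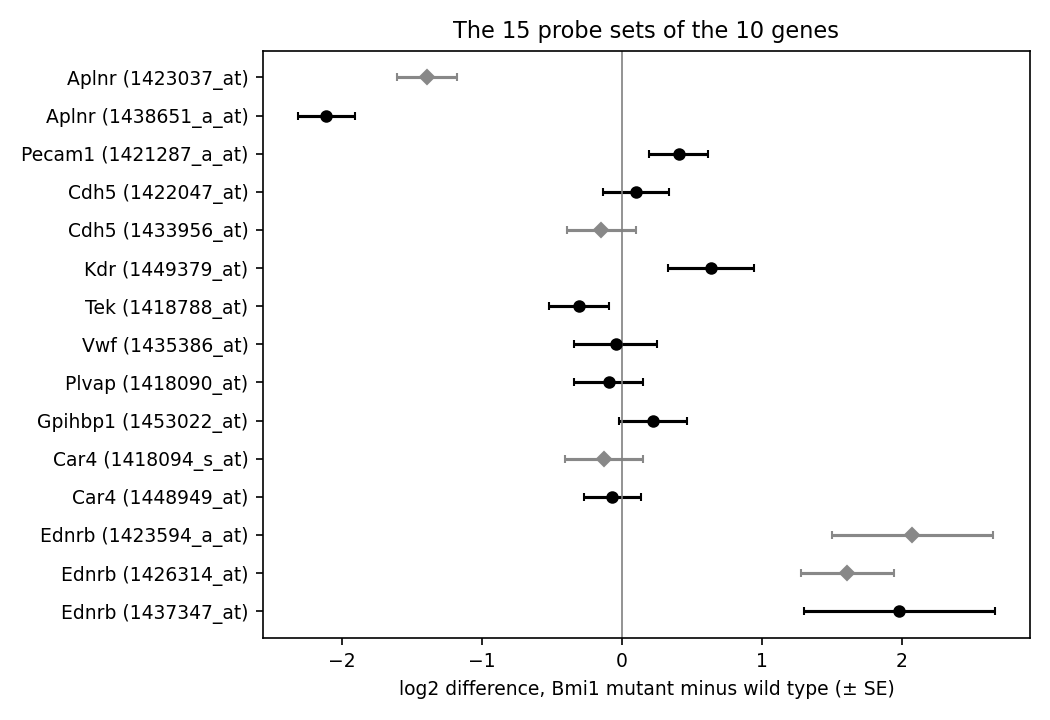
Log2 difference, mutant minus wild type, of each of the 15 probe sets (x axis) with its moderated standard error. Black circles mark the probe set that stands for a gene and grey diamonds the others. Both Aplnr probe sets lie left of 0, at -2.11 and -1.39, and the 3 Ednrb probe sets lie right of it, between 1.61 and 2.07.

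Ednrb moved with markers of mesenchymal cells from array to array. The mean log2 signal of 13 pericyte and smooth muscle genes was 10.021, 9.671 and 9.998 in the mutant-labelled arrays, against 9.454, 8.619 and 8.285 in wild-type replicates 1 to 3. That of 10 fibroblast genes was 11.54, 11.45 and 11.60 in the mutant-labelled arrays, against 11.28, 10.85 and 10.11 in the wild-type arrays. In both lists wild-type replicate 1 was the wild-type array nearest to the mutant-labelled ones and wild-type replicate 3 the farthest, as for Ednrb. With the mean of the fibroblast genes as a covariate the difference of Ednrb was -0.01, and with the pericyte and smooth muscle genes, a covariate chosen after seeing the data, it was -0.42. The corresponding values for Aplnr were -2.38 and -2.49. In neither list did the array means overlap between the genotypes. A fit with such a covariate cannot separate it from the genotype, so nothing is read from these values. The summed signal of the pericyte and smooth muscle genes was 14692 to 18315 in mutant-labelled and 6077 to 12986 in wild-type arrays. It is not known from these data which cells carried the Ednrb RNA, and the part of mesenchymal cells in its difference was not tested.

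Among these mesenchymal genes, Rgs5, a pericyte gene, differed by 1.83 (adjusted p = 0.0621). Of the 13 pericyte and smooth muscle genes, 0 were called, against 0.923% of all genes. An unadjusted p under 0.05 was found for 10 of the 13, against 14.5% of all genes. Col1a1, a collagen gene of fibroblasts, rose in the mutant-labelled arrays by 1.37 (adjusted p = 0.0482), as 1 of 10 fibroblast genes. The lists' medians were 1.21 and 0.76, beside 0.01 over all genes. Genes of melanocytes and glia, which are known to use Ednrb in development, were mostly dim, with 2 of 8 above the array's median on all arrays: Sox10 averaged 43.7 ± 12.8 in mutant-labelled and 37.1 ± 11.8 in wild-type arrays (SD, n = 3 each), named after its values were seen, and 0 of the 8 were called, 0 also at an unadjusted p under 0.05.

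The ligands and converting enzymes of the endothelin pathway, 5 measured genes, had 0 called and 0 at an unadjusted p under 0.05. The shares over all genes were 0.923% and 14.5%, so with 5 genes nothing is read from the 0. Edn1, the main endothelial ligand, averaged 960 ± 151 in mutant-labelled and 547 ± 373 in wild-type arrays (SD, n = 3 each), and differed by 0.98 (adjusted p = 0.365). Ece1, which cuts the precursor to the active peptide, differed by 0.31 (adjusted p = 0.457) without overlap between the genotypes.

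Promoter sequences from 250 bases before to 50 bases after the gene start were found in the RefSeq table of build GRCm38.p6 for 4 of the 10 genes, Kdr, Tek, Car4 and Ednrb. They are shown for Ednrb and Kdr, which had the highest differences of the 10 genes, and for Tek, which had the lowest after Aplnr, because Polycomb complexes are known to act at promoters rich in CG dinucleotides, which are set in capitals. The windows lie at chr14:103843652-103843951 for Ednrb and chr5:75978406-75978705 for Kdr, both on the minus strand, and at chr4:94739039-94739338 for Tek on the plus strand.
Ednrb: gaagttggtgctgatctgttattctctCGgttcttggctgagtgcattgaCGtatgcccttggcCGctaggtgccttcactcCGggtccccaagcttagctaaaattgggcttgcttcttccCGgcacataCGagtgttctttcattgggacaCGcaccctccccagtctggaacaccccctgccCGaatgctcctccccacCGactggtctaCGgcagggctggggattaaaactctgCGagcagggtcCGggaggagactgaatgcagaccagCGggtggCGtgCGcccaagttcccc
Kdr: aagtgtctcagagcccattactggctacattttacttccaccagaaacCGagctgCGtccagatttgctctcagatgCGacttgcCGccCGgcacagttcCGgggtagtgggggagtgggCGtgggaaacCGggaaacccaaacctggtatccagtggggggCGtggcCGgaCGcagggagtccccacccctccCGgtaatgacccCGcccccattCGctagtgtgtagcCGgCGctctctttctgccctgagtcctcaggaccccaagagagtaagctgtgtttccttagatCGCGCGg
Tek: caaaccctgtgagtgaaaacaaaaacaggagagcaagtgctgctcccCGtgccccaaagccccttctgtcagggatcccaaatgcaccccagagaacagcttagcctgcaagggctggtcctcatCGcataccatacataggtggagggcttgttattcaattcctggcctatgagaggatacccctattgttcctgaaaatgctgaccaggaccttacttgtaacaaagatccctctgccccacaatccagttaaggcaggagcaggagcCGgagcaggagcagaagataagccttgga

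The promoters of Ednrb and Kdr held 15 and 19 CG dinucleotides and that of Tek 3, while that of Car4 held 15. Over 32851 promoters of this length the median was 7, with quartiles at 3 and 20. The letters CCGGAA, a core bound by ETS factors of endothelium, occurred on either strand in Kdr, once, and in Car4, as 2 overlapping matches on opposite strands, and in 14.9% of all promoters. The letters AGGAAG were in 0 of the 4 and in 35.4% of all promoters, and AACAAT, of the SOX type, was in Tek and in 10.7% of all. The 4 promoters are too few to relate letters to differences, and no relation was tested.

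Set against the other endothelial genes on the same array, Aplnr was lower in the mutant-labelled arrays. Its log2 signal minus the mean of the 9 other genes was -3.20, -2.85 and -2.63 in the mutant-labelled arrays, against -0.70, -0.31 and -0.39 in the wild-type arrays. These groups did not overlap and differed by -2.43, or by -2.22 when Ednrb was also left out of the mean. Minus the mean of 48 further endothelial genes, which do not include the 10, the values were -2.14, -1.91 and -1.55 in the mutant-labelled arrays, against 0.39, 0.64 and 0.40 in the wild-type arrays, a difference of -2.34. These differences hold the difference by which Aplnr was chosen and carry no test.

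The 48 further endothelial genes showed no fall like that of Aplnr. They comprise 30 genes of endothelial junctions and surface and 18 transcription factors of endothelium. In limma 0 of the 48 were called, against 0.923% of all genes, and at that share nothing is read from the 0. An unadjusted p under 0.05 was found for 7 of the 48, or 14.6%, against 14.5% of all genes. The median difference of the 48 was 0.17, with 33 above and 15 below 0. Of the 48, 0 had a difference below -1 and 3 one above 1, against 2.22% and 2.95% of all genes. The lowest value was -0.52, in the dim factor gene Etv2, with mean signals of 7.75 in mutant-labelled and 17.5 in wild-type arrays. Groups did not overlap in 10 of the 48, or 20.8%, 9 with higher and 1 with lower mutant-labelled arrays, against 20.5% of all genes.

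**Figure D3:**
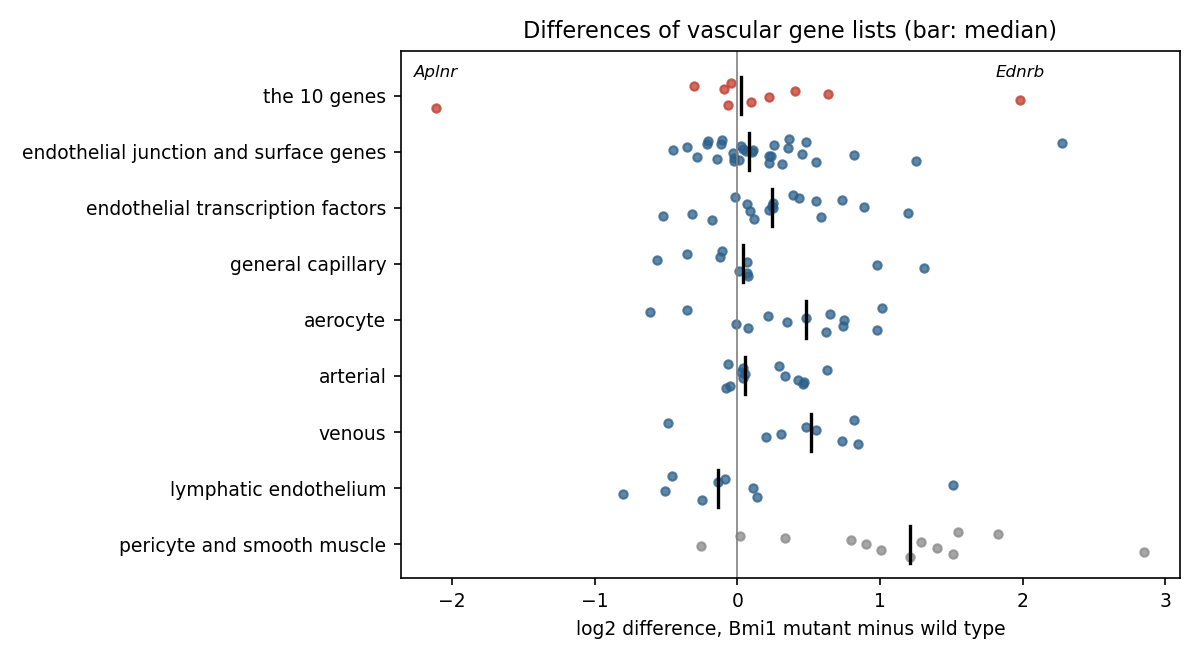
Log2 difference, mutant minus wild type (x axis), of each gene of 9 lists, 1 point per gene, with a bar at the median of each list and the 10 genes described here on top. Aplnr lies at -2.11 and Ednrb at 1.98, while the 48 surface genes and transcription factors lie between -0.52 and 2.28.

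The surface genes with the smallest p lay above 0. Cd34, a sialomucin of capillaries that fibroblasts and blood progenitors also carry, read 1807, 1808 and 1892 in the mutant-labelled arrays, against 1143, 655 and 590 in the wild-type arrays. The genotypes did not overlap, and the log2 difference was 1.25 ± 0.26 (SE, adjusted p = 0.0931). Its call was gained without wild-type replicate 1. Sele, a selectin of inflamed endothelium, differed by 2.28 (adjusted p = 0.220) with overlap, Emcn by 0.82 (adjusted p = 0.273) and Adgrl4 by 0.55 (adjusted p = 0.327).

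Among the 18 transcription factors the median was 0.24. Erg, a factor of the ETS family that maintains endothelial identity, averaged 3513 ± 206 in mutant-labelled and 2368 ± 502 in wild-type arrays (SD, n = 3 each), and differed by 0.58 (adjusted p = 0.244). Foxc2, a factor of lymphatic valves, was dim and differed by 1.20 (adjusted p = 0.185), and Hey2, a target of Notch signals in arteries, by 0.89 (adjusted p = 0.224). These 3 had groups without overlap, but they were named for the smallest p of the list. Of the 18 factors, 6 had higher mutant-labelled arrays without overlap and 0 had lower ones. Over all genes, 20.5% had groups without overlap.

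Genes known from single vessel types had 0 called by limma in each of 5 lists, which share some genes with the 48. Over all genes, 0.923% were called and 14.5% had an unadjusted p under 0.05. The general capillary list, 10 genes without Tek and Vwf, had a median of 0.04 and 1 gene with an unadjusted p under 0.05, Cxcl12, which fibroblasts and pericytes also make (1.31, adjusted p = 0.146). Kit, a receptor known from general capillary cells and mast cells, had the lowest value, -0.56 (adjusted p = 0.409). The 13 aerocyte genes had a median of 0.48, with 3 at an unadjusted p under 0.05. They included Chst1 (0.98, adjusted p = 0.141) and the mesenchymal and aerocyte factor Tbx2 (1.02, adjusted p = 0.330).

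The 13 arterial genes had a median of 0.05, with 0 at an unadjusted p under 0.05, and the 8 venous genes one of 0.52, with 3. Among the venous genes Vcam1, an adhesion molecule that fibroblasts also express, differed by 0.82 (adjusted p = 0.196), and Amigo2, an adhesion protein gene, by 0.73 (adjusted p = 0.206). The chemokine-binding gene Ackr1, known from venules, differed by 0.84 (adjusted p = 0.211), at mean signals of 86.2 in mutant-labelled and 39.0 in wild-type arrays. These 3 had an unadjusted p under 0.05. Nr2f2, a factor of veins and of mesenchyme, differed by 0.55 (adjusted p = 0.402). None of these 4 genes had groups that overlapped, but they were named for the smallest p of the list. Of the 8 venous genes, 5 had higher mutant-labelled arrays without overlap and 0 had lower ones. Over all genes, 20.5% had groups without overlap. The 9 lymphatic genes had a median of -0.14, with 1 at an unadjusted p under 0.05. That gene, Pdpn, which alveolar type 1 cells and fibroblasts also express, differed by 1.51 (adjusted p = 0.0530), and the hyaluronan receptor Lyve1, which some macrophages carry too, by -0.80 (adjusted p = 0.370).

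The level of endothelial genes differed more among wild-type arrays than among mutant-labelled arrays. The mean log2 signal of the 48 genes was 10.33, 10.23 and 10.16 in the mutant-labelled arrays, against 10.34, 9.75 and 9.93 in the wild-type arrays. Wild-type replicate 1 was thus level with the mutant-labelled arrays and the other wild-type arrays lay below them. Of the 8 genes without Aplnr and Ednrb, 7 had a wider log2 range in wild type than in the mutant-labelled arrays, as did 36 of the 48 and 43.9% of all genes. Wild-type replicate 2 had the lowest value of 5 of the 8 genes and of 22 of the 48, and wild-type replicate 1 the highest of 4 of the 8 and of 18 of the 48. These counts were not made over all genes, so whether they are particular to endothelial genes was not tested. On wild-type replicate 2 Aplnr read 1322, between the other wild-type arrays.

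**Figure D4:**
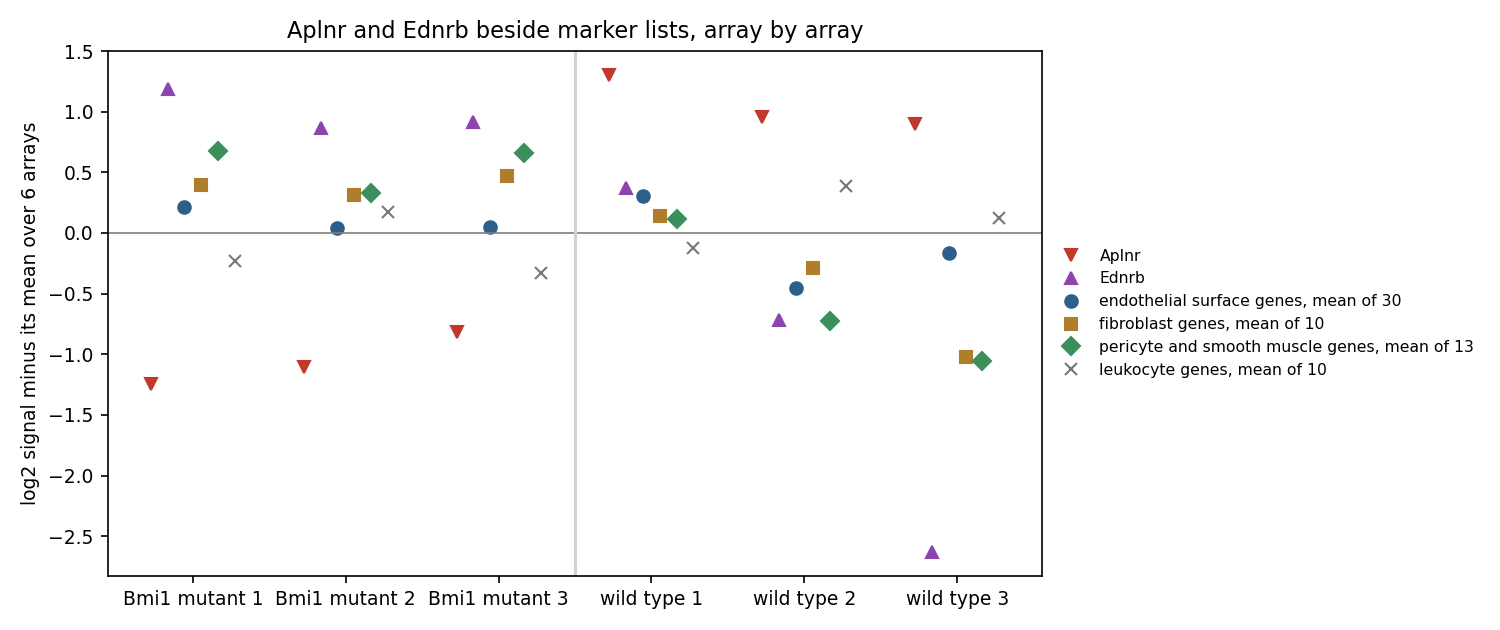
Log2 signal minus its mean over the 6 arrays (y axis) on each array (x axis, mutant-labelled arrays left of wild type) for Aplnr, for Ednrb and for the means of 4 marker lists. Aplnr is below 0 on the 3 mutant-labelled arrays and above it on the 3 wild-type arrays, while Ednrb is highest on mutant-labelled replicate 1 (1.19) and lowest on wild-type replicate 3 (-2.63), where the fibroblast and pericyte lists are lowest too.

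Platelets and megakaryocytes are known to carry Pecam1 and Vwf as well. Of 9 measured platelet genes 2 were called, against 0.923% of all genes. Pf4, a platelet chemokine that some macrophages also express, rose by 1.87 (adjusted p = 0.0376). Clec1b, a platelet receptor also known from myeloid cells, fell by 2.40 (adjusted p = 0.0307). Clec1b averaged 140 ± 37.6 in mutant-labelled and 832 ± 329 in wild-type arrays (SD, n = 3 each). The list's median was 0.19, and its summed signal was 2842 to 5031 in mutant-labelled and 1911 to 2033 in wild-type arrays. Of the 9 genes, 2 lay above the array's median on all 6 arrays. Ppbp, another platelet chemokine gene, averaged 404 ± 172 in mutant-labelled and 186 ± 157 in wild-type arrays (SD, n = 3 each), a difference of 1.36 (adjusted p = 0.412) with overlap. Gp1bb, of the receptor for von Willebrand factor, averaged 110 ± 75.7 in mutant-labelled and 62.1 ± 15.03 in wild-type arrays, Itga2b, an integrin of platelets, averaged 22.1 ± 12.0 in mutant-labelled and 18.8 ± 3.49 in wild-type arrays, and Gp9 averaged 15.4 ± 5.71 in mutant-labelled and 24.7 ± 16.4 in wild-type arrays (SD, n = 3 each), these 3 named after their values were seen. The part of platelet RNA in the signals of Pecam1 and Vwf was not tested.

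Over the 6 arrays, the genes whose pattern was nearest to Aplnr were Phgdh, Mcoln3, Ttf1, Cd79b and Acaa1b. Likeness was measured as the root mean square difference of log2 signals after each gene's mean was taken off, over 9086 genes brighter than the median gene, and was 0.21, 0.21, 0.26, 0.28 and 0.29 for these 5 in this order. Phgdh, an enzyme of serine synthesis, averaged 799 ± 132 in mutant-labelled and 3091 ± 356 in wild-type arrays (SD, n = 3 each). Cd79b, part of the B cell receptor, averaged 288 ± 11.04 in mutant-labelled and 1175 ± 209 in wild-type arrays (SD, n = 3 each). The nearest of the other 9 genes to Aplnr was Tek, at 0.92. This measure holds the difference between the genotypes by which Aplnr was chosen. The 5 genes nearest to Aplnr differed by -1.94, -2.07, -1.87, -1.96 and -2.27, so nothing further is read from the ranking. For Ednrb, in a search added after its values were seen, the nearest were Tpm2, Acta2, Lox, Adamts15 and Tagln, at 0.25, 0.29, 0.31, 0.37 and 0.37. Of these, Acta2, Tagln and Tpm2 encode parts of the contractile apparatus of smooth muscle, and Acta2 and Tagln belong to the list of 13 above. The nearest of the 10 genes to Ednrb was Kdr, at 0.97. For Ednrb too the measure holds its difference between the genotypes, and the 5 genes nearest to it were also higher in the mutant-labelled arrays on average. Nothing further is therefore read from that ranking, and it does not show which cells carried the Ednrb RNA.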

How the data were processed

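Gene signals of sorted lung cells were taken from the series' deposited value table of 6 arrays. It holds the authors' linear probe-set intensities, for which the submitters' processing notes name Affymetrix Expression Console 1.1. How probes were summarized is not given in the sources used here. From them, log2(signal + 16) was computed with no further scaling, which understates the change of dim genes. Of 45101 probe sets, 64 controls, 932 with several symbols and 9160 with none were left out; 1 gene was not analysed here. Each of 18193 genes was represented by its brightest probe set, by mean log2 over the 6 arrays.

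Genotypes were compared in limma 3.58.1 (lmFit, eBayes; R 4.3.3), without covariates, with Benjamini-Hochberg adjustment over all genes; a call is an adjusted p under 0.05, and every adjusted p comes from this fit. In simulated arrays, 26% of genes changed by a log2 of 1 and 69% of those changed by 2 were recovered. The simulated noise was independent between genes, whereas marker lists of the real arrays moved together. These shares may therefore not hold for the real arrays. With 3 arrays a genotype, their number limits the precision. The p values set each difference against the spread between these arrays, moderated over all genes.

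The genes, lists and tests were chosen with earlier results of these data known. The text names the 10 genes, Apln, up to 4 genes with the smallest p of each list, Bmi1, Ptprc and the Y-linked genes as checks, and the 5 genes nearest to Aplnr; others are said to be named after their values were seen. Melanocyte, pericyte, leukocyte, fibroblast, platelet and vessel lists are reported. The macrophage (median -0.29), mesothelial (0.02) and epithelial (0.17) lists had 0 called, against 0.923% of all genes. Alternatives covered offsets, scaling, dim genes, probe sets, variance prior, array weights, the replicate block, covariates and each array left out. Figures were drawn with matplotlib 3.10.9.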

Additional observations from a re-analysis of the deposited data

How the results depend on the processing

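The difference of Aplnr kept its sign in all 20 other settings, between -2.49 and -1.75, and between -2.23 and -1.99 when single arrays were left out. It moved by more than the spread between arrays to -1.75 with the mean of its probe sets, -2.38 with the fibroblast covariate and -2.49 with the pericyte and smooth muscle covariate, which was chosen after seeing the data. The median of the 9 other genes, 0.10, lay between -0.04 and 0.33 with single arrays left out and was -0.42 with the pericyte covariate. Ednrb turned to -0.012 with the fibroblast covariate and -0.42 with the pericyte covariate, under which Pecam1 turned to -0.13 and Kdr to -0.28. Neither covariate overlapped between the genotypes, so these fits cannot separate it from the genotype, and the cause was not tested. Of the 48 further endothelial genes, 0 to 1 were called with single arrays left out and 1 with a variance prior that follows the mean level, Cd34 in both. Of all genes, 168 were called, against 2 to 76 with single arrays left out, 38 with an offset of 1, 264 with an offset of 64, 345 with dim genes left out, 383 with the variance trend, 10 with the endothelial covariate and 7 with the leukocyte covariate. The replicate block called 0 (2611 at an unadjusted p under 0.05), the fibroblast covariate 0 (1330) and the pericyte covariate 0 (1094). Of the called genes, 75 were higher and 93 lower, against 120 and 88 with median centring. The labels share replicate numbers, but deviations of same-numbered arrays correlated at 0.073, 0.048 and 0.032 across genes, too little to take them as pairs, although every array correlated best with its own number; the block left the difference of Aplnr at -2.11. Aplnr in the mutant-labelled arrays and Ednrb in wild type were nearest to the dim range, where the signal over background limits the fold.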
